A study of Mus musculus with 12 samples.

Results

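Genes of fatty acid oxidation and of the peroxisome were followed in 3T3-L1 adipocytes, a mouse fat cell line, after knockdown of the zinc finger protein gene Zfp407 by small interfering RNA (siRNA). The genes were 29 named enzymes and transporters plus every gene with a row of its own whose name is Pex with a number and optional letters. The latter came to 14 names, making 43. Of these, 41 had a row of their own in the deposited table and 39 had a mean of at least 1 FPKM over the libraries (mapped fragments per kilobase of transcript length, scaled to each library's fragment total), so 39 of the 14706 rows at that level were tested. They were 15 mitochondrial genes, 11 genes of peroxisomal enzymes and transporters, and 13 peroxins. The members left out were Cpt1b and Echs1, whose names stood only in rows shared with a second gene, and Ehhadh and Pex5l, which lay under 1 FPKM. The peroxin set is not complete, since names that stood only in shared rows, such as Pex16, were not counted and Pex2 had no row.

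The adipocytes, differentiated in culture, had received 0.75 nmol of siRNA by electroporation on day 2 after differentiation. The control arm held 6 libraries with a control siRNA and the knockdown arm 6 with Zfp407 siRNA, from 3 electroporations of each of 2 siRNAs. The columns of the knockdown arm do not say which siRNA they hold, so all 6 were treated as 1 arm. The p-values rest on how far separate electroporations of this single line varied. In the knockdown arm that spread also holds any difference between the 2 siRNAs, and the tests treat its 6 libraries as alike. In these bulk samples, fewer cells of a type and less RNA per cell cannot be told apart.

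Mitochondrial beta-oxidation shortens fatty acids from the carboxyl end. Acyl groups enter the matrix through the carnitine shuttle, pass a cycle of dehydrogenation, hydration, a further dehydrogenation and thiolysis, and hand their electrons to the respiratory chain through the electron transfer flavoprotein. Peroxisomes take the very long chain and branched substrates first, through oxidases that make hydrogen peroxide, which catalase breaks down, and pass shortened chains on to mitochondria. Peroxins build the organelle: they insert its membrane proteins, import its matrix enzymes and divide it. In fat cells, several genes of both organelles are known targets of the nuclear receptor PPARgamma with RXR.

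The 4 promoter windows below are shown because their genes carry the largest called decreases among the mitochondrial members, encode the enzyme of peroxide removal or stand back to back with a partner of the same enzyme. They run from 250 bases before to 50 bases after the RefSeq start (GRCm38.p6), 5′ to 3′ on the strand of the gene. Capitals mark the half-site AGGTCA, its direct repeat with 1 base between and up to 2 mismatches, and the GC box GGGCGG, all searched on both strands.
Cpt2, chr4:107923540-107923839, minus strand: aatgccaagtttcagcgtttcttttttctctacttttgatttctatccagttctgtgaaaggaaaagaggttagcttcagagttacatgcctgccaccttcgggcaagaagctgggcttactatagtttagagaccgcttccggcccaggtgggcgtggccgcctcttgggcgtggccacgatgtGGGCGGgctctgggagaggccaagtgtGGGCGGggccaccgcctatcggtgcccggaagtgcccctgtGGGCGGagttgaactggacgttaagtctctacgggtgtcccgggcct
Acadvl, chr11:70015379-70015678, minus strand: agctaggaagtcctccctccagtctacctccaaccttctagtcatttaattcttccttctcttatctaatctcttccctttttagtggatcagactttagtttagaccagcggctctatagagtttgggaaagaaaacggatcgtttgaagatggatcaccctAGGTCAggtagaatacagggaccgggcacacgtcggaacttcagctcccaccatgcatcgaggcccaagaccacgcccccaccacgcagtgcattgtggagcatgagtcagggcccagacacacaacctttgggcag
Cat, chr2:103485104-103485403, minus strand: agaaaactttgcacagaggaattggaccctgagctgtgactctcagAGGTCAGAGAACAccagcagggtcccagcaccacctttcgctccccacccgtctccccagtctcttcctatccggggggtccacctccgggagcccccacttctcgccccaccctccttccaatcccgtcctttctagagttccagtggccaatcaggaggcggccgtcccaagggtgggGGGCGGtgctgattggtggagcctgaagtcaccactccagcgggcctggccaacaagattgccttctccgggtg
Hadhb, chr5:30155003-30155302, plus strand: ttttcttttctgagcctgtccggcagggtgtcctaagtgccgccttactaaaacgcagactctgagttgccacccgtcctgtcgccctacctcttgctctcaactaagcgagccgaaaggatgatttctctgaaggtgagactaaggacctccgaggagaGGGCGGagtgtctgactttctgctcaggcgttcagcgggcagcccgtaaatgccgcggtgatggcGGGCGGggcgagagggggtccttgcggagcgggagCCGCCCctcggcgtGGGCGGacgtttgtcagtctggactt

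The Acadvl window held 1 AGGTCA half-site, and the Cat window held the repeat-like match AGGTCAGAGAACA with its first base at -204 from the start. The Cpt2 and Hadhb windows held GC boxes and no half-site. The starts of Hadha and Hadhb lie 273 bases apart on opposite strands, so their windows share 228 bases. Among the 31 tested members with a RefSeq promoter, the half-site was present in 6 (19.35%), against 18.1% of all genes in the promoter table, and the repeat in 2 (Cat and Etfa, 6.45%), against 4.40%. The GC box was present in 24 of the 31 (77.4%), against 38.2% of all genes, and CCAAT in 12 (38.7%), against 41.1%. The binding site TCAAGGTCA of the estrogen-related receptors was in 0 of the 31 windows and in 0.466% of all genes. These shares of all genes cover 27025 genes at any level, while the 31 members had passed the filter of 1 FPKM. Shares among genes at that level were not computed, and no difference in share was tested. A match is a run of letters and no evidence of binding, and members without a matched promoter include Crat, Acaa2, Decr1, Abcd2, Hsd17b4 and Pex19.

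The targeted gene was measured first. Zfp407 lay between 2.70 and 3.16 FPKM in the control libraries, with a median of 2.76, and between 1.604 and 2.127 after knockdown, with a median of 1.72. The arms did not overlap, with a log2 fold change of -0.46 (SE 0.06, limma adjusted p = 8.0e-05). Each library summed to between 2772929 and 3748488 FPKM, and the share in mitochondrially encoded genes was 22.7 to 25.3% in the controls and 19.4 to 32.8% after knockdown, highest in knockdown library 6. Adipocyte markers summed to 15097 to 18891 FPKM in controls and 14321 to 18651 after knockdown, with 4 of 8 lower (Adipoq, Cidec, Lep and Adrb3) and none higher. Preadipocyte or fibroblast markers summed to 2482 to 2769 and 1970 to 2589 FPKM, with 2 of 7 lower (Col1a1 and Col3a1), and brown or beige markers to 156.5 to 173.5 and 94.5 to 133, with 1 of the 3 tested lower (Cox7a1) and Ucp1, Cidea, Dio2 and Elovl3 under 1 FPKM on average. Cidea, not tested, went the other way, from 0.60 ± 0.18 to 1.18 ± 0.23 FPKM (SD, n = 6 each), with overlapping arms. Macrophage markers (2 of 4 had rows) and the 3 endothelial markers summed to at most 0.13 and 0.391 FPKM in any library. Over all rows tested, 24.8% were called lower and 11.6% higher, and the marker counts were not tested against these shares. The part of the adipocyte, preadipocyte and brown markers in the results was not tested.

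Most of the oxidation and peroxisome genes were lower after knockdown. With limma on log2(FPKM + 1) and Benjamini-Hochberg adjustment over all 14706 rows at a threshold of 0.05, 30 of the 39 members fell, 2 rose and 7 did not pass. Over the whole table, 36.4% of rows were called, 24.8% lower and 11.6% higher, against 82.05% of these members called and 76.9% lower. Their median log2 fold change came to -0.27, against -0.05 over all rows tested. Against a minimum fold of 1.2, which 5.82% of all rows passed, the 6 members past the threshold were Cpt2, Acadvl, Abcd2, Acox3, Cat and Pex11c. The arms did not overlap, with knockdown lower, for 18 members, against 13.9% of all rows, and with knockdown higher for 1 member, against 5.51% of rows. Fold changes on this scale understate the change of low genes.

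**Figure D1:**
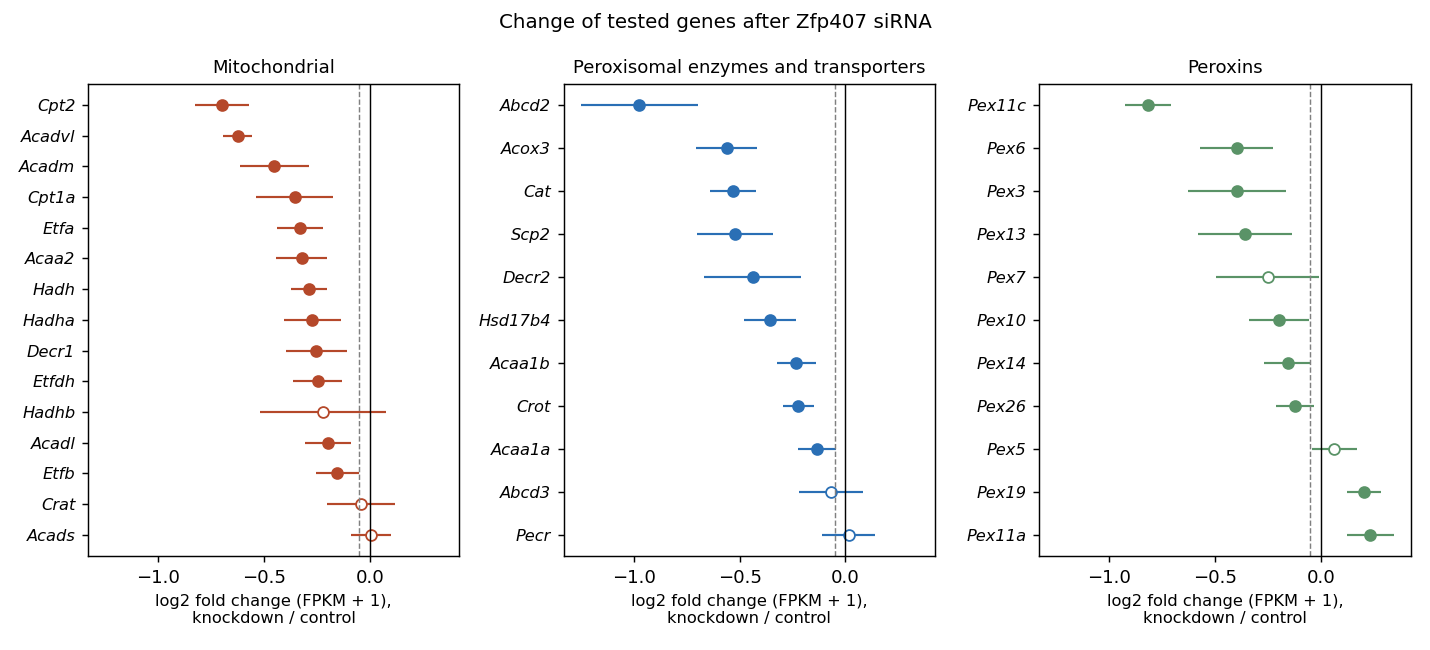
Log2 fold change (FPKM + 1, Zfp407 siRNA over control) of 37 tested genes in 3 groups, with 95% confidence intervals from limma. Filled points passed an adjusted p of 0.05 over all rows, open points did not, and the dashed line is the median of all rows tested, -0.05. Points lie left of 0 for 32 of them, and the filled points to the right are Pex19 and Pex11a.

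A limit of the table was measured in low rows, which hold none of the tested members. In rows with a mean under 0.5 FPKM, the FPKM that a single read adds differed between the arms in 318 of 986 rows (32.25%). This counts log2 differences above 0.02, and the 90th percentile over all 986 was 0.241. Within arms, what a read adds differed in 5 of 441 and 4 of 486 rows. Rows with the largest differences, or with values not near whole multiples, were left out first, so 0.241 is no upper limit. These differences carry no pseudocount, unlike the members' fold changes, and the size of the term in the members was not tested. The spread between libraries does not cover such a term. Of the 32 called members, 22 had a log2 fold change larger than 0.241 in size. In the authors' deposited table, which tests the same arms, 34 of the 37 tested members with a completed estimate had a log2 fold change below 0 (91.9%), against 59.6% of the 14202 tested rows with one. In the authors' deposited table, 12 of the 37 had an unadjusted p under 0.05 (32.4%), against 7.45% of those rows. Of the 37, 1 (Abcd2) was marked significant in the authors' deposited table, against 269 of the 14202 rows (1.89%).

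The carnitine shuttle was lower at its pair of transferases for long chains. Cpt1a, which loads long-chain acyl groups onto carnitine at the outer membrane, lay at 9.35 to 10.17 FPKM in controls (median 9.51) and at 5.67 to 8.85 after knockdown (median 7.45). All 6 knockdown libraries were below every control, with knockdown libraries 4 and 6 lowest, with a log2 fold change of -0.35 (SE 0.08, limma adjusted p = 0.00557), not past the minimum fold (adjusted p = 0.905). Cpt2, which returns the acyl group to coenzyme A in the matrix, lay at 111.9 to 122 FPKM (median 117.8) and then at 64.4 to 79.9 (median 72.6). The gap between the arms was wider than the range of either, with a log2 fold change of -0.70 (SE 0.06, limma adjusted p = 3.55e-06). This was the largest decrease among the 15 mitochondrial members. Crat, the transferase for short acyl groups, lay at 284.9 to 314 FPKM in controls and 247.9 to 354.7 after knockdown. The arms overlapped, and the log2 fold change of -0.04 had a 95% confidence interval of -0.20 to 0.12 (limma adjusted p = 0.704). Cpt1b, the muscle form of the first transferase, could not be separated from Chkb. Their shared row was 33.97 ± 1.92 FPKM in controls and 43.2 ± 6.57 after knockdown (n = 6 each, SD; log2 fold change 0.33, limma adjusted p = 0.0126).

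The 4 acyl-CoA dehydrogenases, which begin the cycle for chains of different length, did not change alike. Acadvl, for very long chains, lay at 187.4 to 201 FPKM in controls (median 197.5) and at 123 to 129.5 after knockdown (median 126.5). Both arms were tight and far apart, with a log2 fold change of -0.62 (SE 0.03, limma adjusted p = 3.2e-08). Acadm, for medium chains, lay at 165.5 to 182.2 (median 177.4) and then at 112.9 to 150.7 FPKM (median 125). No knockdown library reached the controls, but those in columns 1 to 3 lay well under those in columns 4 to 6, with a log2 fold change of -0.45 (SE 0.07, limma adjusted p = 6.1e-04; against the minimum fold, adjusted p = 0.164). Acadl, for long chains, lay at 107.2 to 126.3 FPKM (median 120.7) and then 96.9 to 112.6 (median 101.9). The arms overlapped, with 4 of 6 knockdown libraries under every control and a log2 fold change of -0.20 (SE 0.05, limma adjusted p = 0.00808). Acads, for short chains, was the most abundant of the 4 and lay at 875.2 to 959.4 FPKM (median 913.6) and 855 to 965.1 (median 927.6). Its arms covered the same range, and the log2 fold change of 0.00 had a 95% confidence interval of -0.09 to 0.10 (limma adjusted p = 0.947). With quantile normalization it turned to -0.12 and passed (limma adjusted p = 0.0383).

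Within libraries, the ratio of Acadvl to Acads fell by 0.63 on the log2 scale (SE 0.04), that of Acadm to Acads fell by 0.45 (SE 0.07) and that of Acadvl to Acadl fell by 0.43 (SE 0.05). Each had an adjusted p of 0.00325 over the 6 ratios of the family by a two-sided exact permutation test (6 against 6, the smallest unadjusted p being 0.00216), and in none did the arms overlap. The ratio of Acadl to Acadm was 0.25 higher (SE 0.05, exact permutation adjusted p = 0.00325), and that of Acadl to Acads fell by 0.20 (SE 0.04, exact permutation adjusted p = 0.00519). Acadvl over Acadm fell by 0.17 (SE 0.07, exact permutation adjusted p = 0.0346). This last call was lost without any one of control libraries 1 to 5 or knockdown libraries 4 and 5 (exact permutation adjusted p from 0.0519 to 0.0736). The family was chosen after the values were seen. The order of the decreases, Acadvl, Acadm, Acadl and then Acads, did not follow chain length, since the long-chain enzyme changed less than the medium-chain enzyme.

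**Figure D2:**
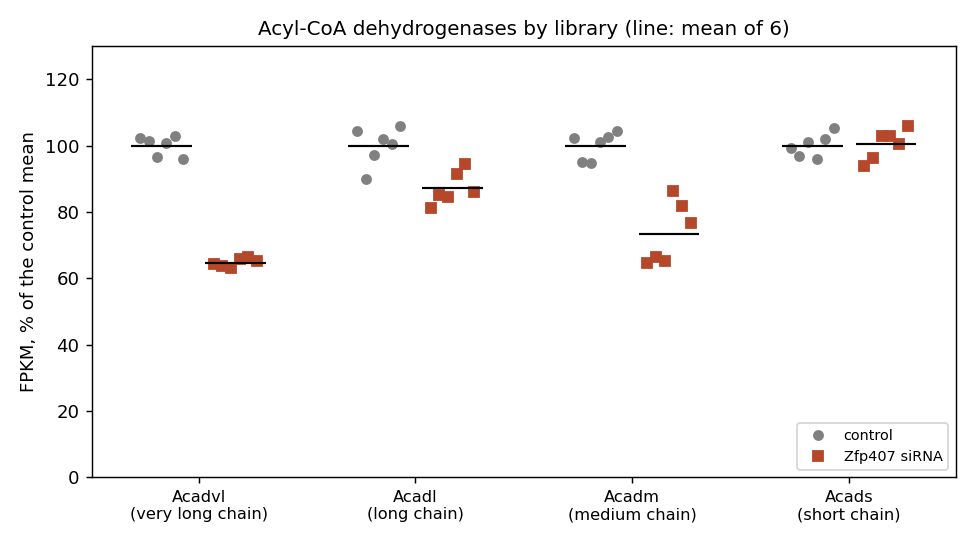
FPKM of the 4 acyl-CoA dehydrogenases as a percentage of the mean of the control libraries, one point per library (grey circles control, red squares Zfp407 siRNA, n = 6 each, lines are means). The Acadvl points of the knockdown arm lie close together, with a mean difference of -35.3% from the control mean, Acadm splits into a lower and an upper group of 3 columns, and the arms of Acads cover the same range.

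Most genes of the later steps of the mitochondrial cycle also fell. Hadha, the alpha subunit of the trifunctional protein that hydrates and dehydrogenates long chains, lay at 255.6 to 278.9 FPKM in controls (median 267.4) and 204.4 to 253.2 after knockdown (median 210.5). The arms did not overlap, but the highest knockdown library came within a few FPKM of the lowest control. Its log2 fold change came to -0.27 (SE 0.06, limma adjusted p = 0.00458). Hadhb, the beta subunit with the thiolase activity, lay at 262.1 to 383.2 FPKM (median 362.6) and 216.7 to 364.9 (median 304.9). Control library 2 was far under the other controls and the arms overlapped widely. The log2 fold change of -0.22 (95% confidence interval -0.52 to 0.08) did not pass (limma adjusted p = 0.235), and it was -0.13 without knockdown library 2, also not past the threshold. The Hadha to Hadhb ratio differed between the arms by -0.05 (SE 0.12, two-sided exact permutation p = 0.652), so the calls do not show that the 2 subunits differ.

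Hadh, the short-chain 3-hydroxyacyl-CoA dehydrogenase, and Acaa2, a mitochondrial thiolase, fell with log2 fold changes of -0.29 (limma adjusted p = 1.36e-04) and -0.32 (7.3e-04), and neither gene's arms overlapped. Echs1, the short-chain hydratase, shares its row with 1810014F10Rik, and that row went from 328 ± 30.2 to 266 ± 29.8 FPKM (n = 6 each, SD; log2 fold change -0.30, limma adjusted p = 0.0141). Decr1, a reductase for unsaturated chains, fell with a log2 fold change of -0.25 (limma adjusted p = 0.0105). All 3 electron transfer genes fell. Etfa, the alpha subunit of the flavoprotein, lay at 284.4 to 326.4 FPKM in controls and 217.3 to 256.5 after knockdown, with no overlap and a log2 fold change of -0.33 (SE 0.05, limma adjusted p = 3.5e-04). Etfb, the beta subunit, lay at 271.7 to 303.6 and 236.8 to 280 FPKM, overlapping in 1 knockdown library, with -0.15 (SE 0.05, limma adjusted p = 0.0227). That call was lost without control library 1 or 5 or knockdown library 1 (limma adjusted p from 0.0502 to 0.0524). The Etfa to Etfb ratio fell by 0.18 (SE 0.04), with no overlap and an exact permutation p of 0.00216, the smallest possible (adjusted over the 5 ratios of paired members, 0.0108). Etfdh, which passes the electrons to ubiquinone, fell with a log2 fold change of -0.25 (limma adjusted p = 0.00316). In all, 12 of the 15 mitochondrial members fell, 0 rose and 3 did not pass (Crat, Acads and Hadhb), with a median of -0.27 and quartiles of -0.34 and -0.21.

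**Figure D3:**
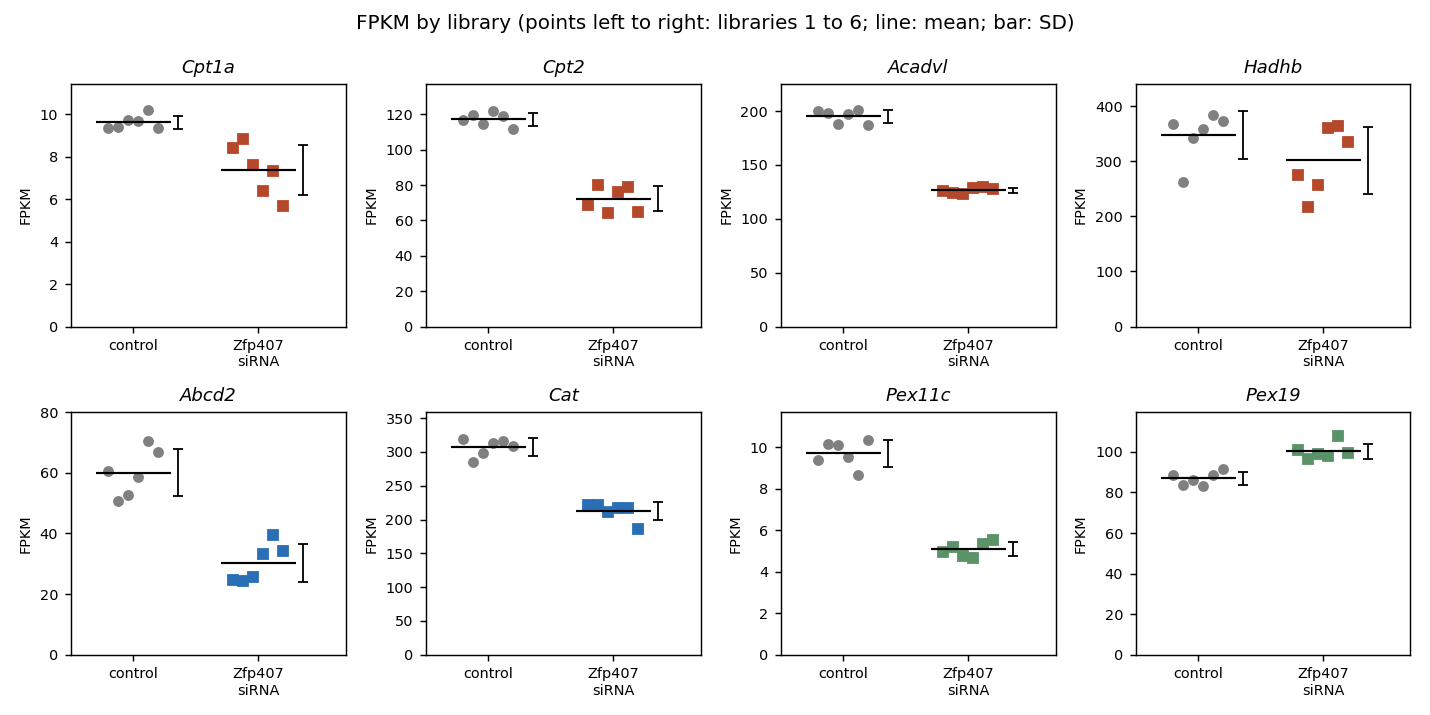
FPKM of 8 genes in each of the 12 libraries (grey circles control, coloured squares Zfp407 siRNA, points from left to right are libraries 1 to 6, lines are means and bars SD, every axis starts at 0). The arms are apart for Cpt1a, Cpt2, Acadvl, Abcd2, Cat and Pex11c, lower after knockdown, and for Pex19, higher, while those of Hadhb overlap.

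In the peroxisome, the transporter of very long chains carried the largest change of any member. Abcd2, an ABC transporter of very long chain acyl-CoA, lay at 50.8 to 70.5 FPKM in controls (median 59.5) and 24.3 to 39.4 after knockdown (median 29.6). Every knockdown library was below every control, and columns 1 to 3 were lowest. Its log2 fold change came to -0.97 (SE 0.13, limma adjusted p = 1.09e-04; against the minimum fold, adjusted p = 0.00217). In the authors' deposited table its q-value was 4.0e-10. Abcd3, a transporter of the same family for branched and dicarboxylic substrates, lay at 42.7 to 54.5 and 43.4 to 52.4 FPKM. Its arms overlapped throughout, with a log2 fold change of -0.07 (95% confidence interval -0.22 to 0.08, limma adjusted p = 0.483).

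Acox3, the oxidase for branched chains, lay at 36.5 to 41.1 FPKM in controls (median 38.8) and 21.3 to 29.3 after knockdown (median 25.9). The arms were well apart, with a log2 fold change of -0.56 (SE 0.07, limma adjusted p = 4.7e-05). Hsd17b4, the D-bifunctional enzyme that takes the next 2 steps, lay at 56.1 to 65.3 and 43.6 to 53.0 FPKM, without overlap, with a log2 fold change of -0.35 (SE 0.06, limma adjusted p = 4.7e-04). Ehhadh, the L-bifunctional enzyme, was under the filter and lay at 0.681 to 0.833 FPKM in controls and 0.370 to 0.546 after knockdown, arms that did not overlap. On the log2(FPKM + 1) scale the ratio of Ehhadh to Hsd17b4 differed by 0.08 (SE 0.05, two-sided exact permutation p = 0.123, adjusted 0.154), but with a pseudocount of 0.1 FPKM the sign turned, to -0.28 (exact permutation adjusted p = 0.00541).

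Scp2, whose longer product is the thiolase for branched chains and whose shorter product is a sterol carrier, lay at 534.5 to 687.8 FPKM in controls (median 640.2) and 377.7 to 505.2 after knockdown (median 436.5). It was the most abundant peroxisomal member, its arms did not overlap, and its log2 fold change came to -0.52 (SE 0.08, limma adjusted p = 4.2e-04; against the minimum fold, adjusted p = 0.0651). The straight-chain thiolases Acaa1a and Acaa1b fell by 0.13 (limma adjusted p = 0.0243) and 0.23 (limma adjusted p = 0.00132) on the log2 scale. Their transcripts are 96.0% identical over 1450 aligned bases, so the division of reads between them is uncertain, and 8 rows lie at the locus of Acaa1a. The Acaa1a call was lost without control library 1 or 3 or knockdown library 1 or 3 (limma adjusted p from 0.0508 to 0.0568) and with quantile normalization (0.0746). The ratio of Acaa1b to Acaa1a differed by -0.10 (SE 0.04, exact permutation p = 0.0368) and did not pass (adjusted 0.0613). It passed without control library 3, control library 6 or knockdown library 1 (exact permutation adjusted p = 0.0469, 0.0325 and 0.0361).

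Cat, the catalase that removes peroxide made by the oxidases, lay at 284.8 to 319.6 FPKM in controls (median 311.1) and 186.2 to 221.7 after knockdown (median 217.3). The arms were far apart, with knockdown library 6 lowest, with a log2 fold change of -0.53 (SE 0.05, limma adjusted p = 8.3e-06). Crot, the octanoyl transferase that exports shortened chains, fell by 0.22 (limma adjusted p = 3.7e-04), without overlap. Decr2, the peroxisomal dienoyl reductase, lay at 36.9 to 56.0 and 31.3 to 38.5 FPKM. Its arms overlapped, 4 of 6 knockdown libraries were under every control, with a log2 fold change of -0.44 (SE 0.11, limma adjusted p = 0.00646). Pecr, a trans-2-enoyl-CoA reductase, did not pass (log2 fold change 0.02, 95% confidence interval -0.11 to 0.14, limma adjusted p = 0.856). Of the 11 peroxisomal enzymes and transporters, 9 fell, 0 rose and 2 did not pass (Abcd3 and Pecr), with a median of -0.35 and quartiles of -0.53 and -0.18.

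Most peroxins fell, and 2 rose. Among 13 tested, 9 fell and 2 rose, and 2 did not pass, with a median of -0.25. The share lower was 69.2%, against 24.8% of all rows. For the 2 that rose, the share of all rows called higher was 11.6%, and no difference from it was tested. Pex11c, a name that RefSeq lists as a synonym of Pex11g and whose family elongates peroxisomes before division, lay at 8.67 to 10.35 FPKM in controls (median 9.80) and 4.68 to 5.53 after knockdown (median 5.08). The arms were far apart, with a log2 fold change of -0.82 (SE 0.05, limma adjusted p = 2.0e-07; against the minimum fold, 8e-06). Pex11a, of the same family, lay at 84.7 to 96.2 FPKM (median 88.7) and 92.5 to 110.2 (median 107.7). It rose by 0.23 on the log2 scale (SE 0.05, limma adjusted p = 0.00323), with 5 of 6 knockdown libraries above every control. Its row runs over chr7:79735865-79785950, well beyond the gene itself (79735957-79743131), and 2 rows lie at that locus.

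Pex19, the carrier of new membrane proteins, lay at 83.2 to 91.6 FPKM in controls (median 87.3) and 96.5 to 107.6 after knockdown (median 99.1). All 6 knockdown libraries were above every control, with a log2 fold change of 0.20 (SE 0.04, limma adjusted p = 0.00114). Pex3, its docking partner in the membrane, lay at 28.6 to 36.01 and 19.8 to 28.9 FPKM, with slight overlap and a log2 fold change of -0.40 (SE 0.11, limma adjusted p = 0.0119). The row of Pex16, which works at the same step, is shared with 1700029I15Rik and went from 51.0 ± 3.55 to 38.1 ± 4.23 FPKM (n = 6 each, SD; log2 fold change -0.42, limma adjusted p = 8.2e-04). Neither Pex19 nor Pex11a passed the minimum fold of 1.2. Both rises, 0.20 and 0.23, were smaller than 0.241, the 90th percentile of the difference between the arms in what a read adds in low rows.

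Neither import receptor passed the test. Pex5, the receptor for the common targeting signal at the end of most matrix enzymes, lay at 44.4 to 50.5 FPKM in controls (median 48.9) and 47.8 to 56.1 after knockdown (median 48.8). The arms overlapped, and the log2 fold change of 0.06 had a 95% confidence interval of -0.04 to 0.17 (limma adjusted p = 0.326). Pex7, the receptor for the second targeting signal, lay at 17.6 to 21.7 FPKM (median 19.99) and 11.8 to 19.4 (median 17.4). The arms overlapped, with 3 of 6 knockdown libraries under every control, and the log2 fold change of -0.25 (SE 0.11) did not pass (limma adjusted p = 0.0966), and it was -0.16 without knockdown library 2, also not past the threshold. The ratio of Pex5 to Pex7 was 0.32 higher after knockdown (SE 0.10, two-sided exact permutation p = 0.00649, adjusted 0.0162), with overlapping arms. The authors' estimate failed for Pex5 and for Pex13.

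Among the other peroxins, Pex6, an ATPase that pulls used receptors out of the membrane, fell by 0.40 (limma adjusted p = 0.00213) without overlap. Its anchor Pex26 fell by 0.12 (limma adjusted p = 0.0313). The docking proteins Pex13 and Pex14 fell by 0.36 (limma adjusted p = 0.0161) and 0.16 (limma adjusted p = 0.0285), and Pex10, a RING ligase subunit, by 0.20 (limma adjusted p = 0.0333). The calls of Pex10, Pex14 and Pex26 were lost when each library was centred on its median (limma adjusted p = 0.0550, 0.0622 and 0.0937), and without single libraries, 8 of the 12 for Pex10 (limma adjusted p from 0.0566 to 0.0723), 4 for Pex14 (control 1 and 2, knockdown 1 and 3; from 0.0526 to 0.0621) and 6 for Pex26 (control 2, 4 and 6, knockdown 1, 3 and 6; from 0.0506 to 0.0689). For Pex10 these were control 2, 3, 4 and 6 and knockdown 1, 2, 3 and 6. Pex5l was listed at 0 in most libraries and at most 0.0140 FPKM.

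By library, all 3 groups shifted in all 6 knockdown libraries. The median deviation of the mitochondrial members from their control means was -0.05 to 0.04 in control libraries and -0.35 to -0.11 in knockdown libraries. The peroxisomal enzymes and transporters lay at -0.06 to 0.06 and at -0.46 to -0.21, and the peroxins at -0.05 to 0.07 and at -0.27 to -0.12. Over all rows tested, the knockdown libraries lay between -0.08 and -0.01. The mitochondrial and peroxin medians were nearest to the controls in knockdown library 5, and the peroxisomal median in knockdown library 4.

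**Figure D4:**
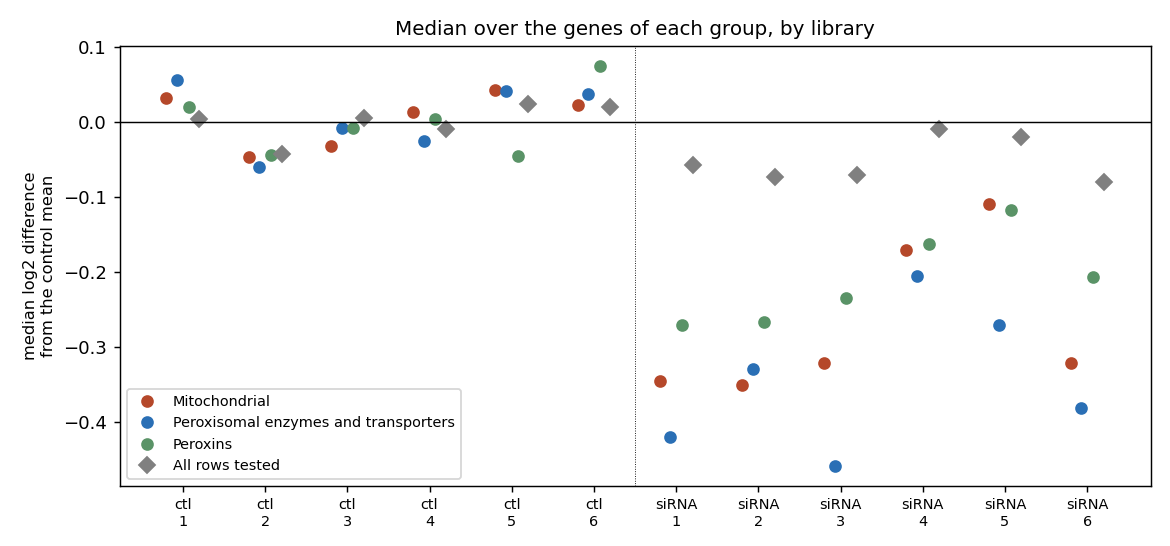
Median over the genes of each group of the log2(FPKM + 1) difference from the control mean, by library (red mitochondrial, blue peroxisomal enzymes and transporters, green peroxins, grey diamonds all rows tested; ctl control, siRNA Zfp407 siRNA). The coloured points of all 6 knockdown libraries lie under those of every control library, down to -0.46, while the grey diamonds reach -0.08.

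Further genes of the same pathways, taken from lists that hold no member, were read in the same fit. Of 24 tested genes of mitochondrial oxidation, 17 fell, 0 rose and 7 did not pass, with a median log2 fold change of -0.40. Acad12, a further acyl-CoA dehydrogenase, went from 16.4 ± 0.319 to 8.24 ± 0.468 FPKM (SD, n = 6 each) and fell by 0.91 (limma adjusted p = 4.9e-09). Pcca, a subunit of propionyl-CoA carboxylase, which takes up the product of odd chains, also fell by 0.91, from 79.1 ± 9.95 to 41.7 ± 4.69 FPKM (limma adjusted p = 2.0e-05). Acadsb, for short branched chains, and Ucp2, an uncoupling protein homologue, fell by 0.69 and 0.67 (limma adjusted p = 0.00239 and 1.6e-05), with 39 rows at the locus of Acadsb.

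Of 37 further tested genes listed as peroxisomal, 24 fell, 2 rose and 11 did not pass, with a median of -0.23. Where in the cell each product mainly lies was not checked for this list. Pxmp2, a channel of the peroxisomal membrane, went from 24.6 ± 2.31 to 12.8 ± 3.67 FPKM (SD, n = 6 each) and fell by 0.93 (limma adjusted p = 6.9e-04). Mpv17l, Dhrs4 and Zadh2 fell by 0.89, 0.77 and 0.70, and Dhrs4 is a peroxisomal carbonyl reductase. The 2 that rose were Ptges2, a prostaglandin E synthase, by 0.25 (limma adjusted p = 0.0226), and Acsl1, which activates long chains to acyl-CoA, by 0.18 (limma adjusted p = 0.00347). Acsl1 was at 875.3 ± 28.2 and 992 ± 31.9 FPKM (SD, n = 6 each).

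Genes of peroxisome division and turnover and the transcription factors of oxidation genes had shares of calls nearer to those of the whole table (24.8% lower and 11.6% higher). Among 10 genes of division and turnover, 2 fell, 1 rose and 7 missed the threshold, with a median of -0.04. The lower ones were Acbd4, which tethers peroxisomes to the endoplasmic reticulum in human cells, by 0.58 (limma adjusted p = 1.3e-04), and Dnm1l, the dynamin that cuts peroxisomes and mitochondria, by 0.25 (limma adjusted p = 0.00111). Fis1, its membrane adaptor, rose by 0.30 (limma adjusted p = 4.0e-04). Of 24 tested transcription factors and cofactors, 5 fell, 4 rose and 15 did not pass, with a median of -0.04. Klf15, Nrip1, Foxo1 and Ppard fell by 0.32, 0.27, 0.24 and 0.20, and Tfeb, Ppargc1b, Pprc1 and Med1 rose by 0.34, 0.31, 0.28 and 0.21. Of the regulators named after their values were seen, Pparg was 255.3 ± 6.39 FPKM in controls and 244.1 ± 21.9 after knockdown (n = 6 each, SD; log2 fold change -0.07, limma adjusted p = 0.369). The log2 fold changes of Rxra, Ppara, Ppargc1a and Esrra were -0.04, -0.05, -0.02 and 0.06 (limma adjusted p = 0.648, 0.811, 0.856 and 0.515), and none of these 5 passed.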

How the data were processed

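The table held FPKM values made by the authors, 1 column per library. Tools listed in the submitters' processing notes are Cufflinks 2.0.2, SAMtools 0.1.18.0, TopHat2 2.0.5 and Bowtie2 2.0.0.7. Build and annotation: not given in the sources used here. The table, per the file headers, also holds the authors' FPKM per arm, log2 fold change, p-value and q-value, which were read only where named. FPKM holds no read totals, so depth is unknown in absolute terms and no counting interval is given. All 41 members with a row overlap their gene in GENCODE M21 (GRCm38). A row can still run beyond its gene, as for Pex11a, Acaa1a, Acaa1b, Scp2, Crat, Pex13 and Pex14 among others. The Acaa1a row covers chr9:119169455-119393797, with the gene at 119339676-119350299. What such stretches add to the FPKM of a row was not tested.

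The fit was limma 3.58.1 under R 4.3.3 on log2(FPKM + 1) (intensity trend, control against knockdown, no covariates) over all 14706 of 39248 rows with a mean of at least 1 FPKM, including rows that name no gene or several genes (3036 and 629 in the whole table). P-values were adjusted by Benjamini-Hochberg over all rows. The test against a minimum fold of 1.2 was limma's treat. The limma fit without a minimum fold was tested on simulated data, and treat was not. Ratios within libraries were differences of log2(FPKM + 1), compared by two-sided exact permutation tests. Where a name had several rows, the one with the highest mean was used.

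Genes given in full were the 4 called members with the largest change in each of the 3 groups, every called member that rose and Cpt1a, Acadm, Acadvl, Hadha, Hadhb, Cat, Pex5 and Pex7, with others by role; a few genes are not reported here, though members among them stay in the counts. From the other lists the 4 largest called in each direction were taken; Pparg, Rxra, Ppara, Ppargc1a and Esrra were added after their values were seen. Members and lists were chosen with earlier results of these data known. Alternatives were other pseudocounts (0.1 FPKM), filters (none, and 5 FPKM), centring, quantile normalization, the minimum fold and leaving out each library. Knockdown columns were not assigned to an siRNA, so tests of each siRNA were not run. RefSeq promoters are of GRCm38.p6.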

Additional observations from a re-analysis of the deposited data

Results flagged for a closer look

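In 6 of 80 groups of 6 libraries (37 tested members and the library medians of the 3 gene groups, in each arm), 1 library lay far from the others by Dixon's criterion; chance gives about 1 in 20. Hadhb was 262.1 FPKM in control library 2, with the nearest control at 342.9 and the farthest at 383.2. Acaa2 was 76.7 FPKM in control library 4, with the nearest at 83.1. Etfa was 217.3 FPKM in knockdown library 2, with the nearest at 242.9, and Cat was 186.2 FPKM in knockdown library 6, with the nearest at 210.7. Acaa1b was 8.19 FPKM in control library 2, against a nearest value of 7.47. Pex6 was 27.4 FPKM in control library 2, against 22.2. Of these 6, control library 2 holds 3. The calls and directions of Hadhb, Acaa2, Etfa, Acaa1b, Cat and Pex6 were the same without any single library.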

How the results depend on the processing

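Against a minimum fold of 1.2, 856 rows of the table were called, with 2 mitochondrial members lower, 3 peroxisomal enzymes and transporters lower, 1 peroxin lower and 0 higher, and of the further pathway genes 14 lower and 0 higher. Quantile normalization reversed Acads, to -0.12, past the threshold. A pseudocount of 0.1 FPKM reversed the ratio of Ehhadh to Hsd17b4, to -0.28, past the threshold, and brought that of Acaa1b to Acaa1a past the threshold, at -0.13. Leaving out control library 2 and knockdown library 6 together, chosen after seeing the data, moved the peroxin median to -0.32 and lost the calls of 4 members (Acaa1a, Pex10, Pex14 and Pex26). Leaving out 1 library gave 4786 to 5525 called rows, 11 to 12 mitochondrial, 8 to 9 peroxisomal and 6 to 9 peroxin members lower, and 44 to 53 further pathway genes lower and 6 to 8 higher. It gave a peroxin median of -0.30 to -0.19 (-0.19 without knockdown library 2) and a ratio of Acaa1b to Acaa1a of -0.114 to -0.0682. Of the 39 tested members, centring kept the call and direction of 36, quantile normalization of 35, no filter of 37 and a pseudocount of 0.1 FPKM of all 39; the causes were not tested. The planned ratio of Cpt1b to Cpt1a was not run, since Cpt1b shares its row. No paired analysis was possible because the knockdown columns, numbered 1 to 6, do not say which labelled sample they hold. The difference between the arms in what a read adds was measured only in low rows, after the largest differences were left out. Its 90th percentile there was 0.241. Such a term in the members would limit what small changes show, and its size in them was not tested.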

Other observations

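Columns 1 to 3 and 4 to 6 of the knockdown arm differed for many of these genes, a pattern noticed after the values were seen and given without a test. In 14 of the 39 members all of columns 1 to 3 lay below all of 4 to 6 (among them Acadvl, Acadl, Acadm, Hadha, Hadhb, Decr1, Abcd2, Acox3, Scp2, Decr2, Pex11a, Pex13 and Pex3), and in 1, Cpt1a, above. Over all rows tested the shares were 15.5% and 7.64%. In the control columns the same division gave 1 member below (Pex13) and 2 above (among them Pex6). Shares of all rows were not computed for the control columns, so these counts cannot be set against the whole table. Acadm was 112.9, 116.1 and 113.6 FPKM in knockdown columns 1 to 3 and 150.7, 142.6 and 134.0 in 4 to 6. Abcd2 was 24.8, 24.3 and 25.8 FPKM and then 33.3, 39.4 and 34.3, all of them under the lowest control of 50.8. Cpt1a was 8.39, 8.85 and 7.58 FPKM and then 6.40, 7.32 and 5.67. Which siRNA each column holds is not known, so the 2 sets are columns and not the study's groups.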
